A study of Mus musculus with 8 samples.

Results

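The 10 genes described here code for calcineurin, for the NFAT transcription factors that it activates and for proteins that bind and restrain it. They were chosen by name from the deposited table, which holds 55679 genes, and each name matched 1 row. They were measured as FPKM, a fragment count scaled by transcript length and by library size, in left ventricles of wild-type male C57BL/6J mice. The control group held 4 libraries from mice that received saline for 7 days, and the ANG II group held 4 from mice that received angiotensin II (ANG II, a pressor peptide hormone) for 7 days at a dose of 1500 ng/kg/min. Both groups were infused from a pump implanted under the skin, and the hearts of both were flushed before the ventricle was removed. The ANG II mice are the study's model of hypertensive left ventricular hypertrophy (LVH). Whole ventricle was sequenced, so fewer cells of a type and less RNA per cell cannot be told apart.

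Calcineurin is a phosphatase that is switched on by calcium and calmodulin. It is built from a catalytic A subunit, coded by Ppp3ca or Ppp3cb in most tissues, and a regulatory B subunit, coded by Ppp3r1. Active calcineurin removes phosphate from the cytoplasmic NFAT proteins, which then enter the nucleus and act on genes together with partners such as GATA4 and MEF2. Rcan1 and Rcan2 code for regulators of calcineurin that bind and inhibit it, and Myoz2 codes for calsarcin-1, a protein of the muscle Z-disc that ties calcineurin to the sarcomere. In the heart this pathway is known as a driver of pathological growth, and Rcan1 is itself induced by NFAT, so its transcript is often read as a gauge of calcineurin activity.

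Depth was similar across the 8 libraries, with 14455654 to 16564828 fragments each. Of 19364 genes tested, 2981 (15.4%) were called, that is, passed a Benjamini-Hochberg (BH) adjusted p-value of 0.05 in limma and an absolute log2 fold change of 0.5. Called genes were mostly higher in ANG II (2708, or 14.0% of tested genes, against 273, or 1.41%, lower). The deposited values carried a general shift, with a median log2 fold change of 0.15 over all tested genes. Mitochondrially encoded genes took 26.3 to 27.0% of fragments in control and 19.2 to 21.8% in ANG II. The tissue label was matched by the markers of cardiac muscle, whose 8 genes summed to between 25103 and 35167 FPKM in every library.

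The larger fold changes among these genes were those of 3 NFAT factors, and those of calcineurin, Rcan2 and Myoz2 were small. All 10 genes were tested, and 1 of them was called: Nfatc4, which rose 2.14-fold in mean FPKM, beside a background of 14.0% of tested genes called higher. The adjusted p-value alone was passed by 4 genes (Nfatc4, Nfatc1, Nfatc2 and Ppp3ca), all higher in ANG II and none lower. Of all tested genes 33.3% passed it, 28.4% higher and 4.91% lower. The groups did not overlap at 5 genes (these 4 and Ppp3r1), all higher in ANG II, beside 33.7% of tested genes, 28.7% higher and 5.06% lower. The median log2 fold change of the 10 genes was 0.20, against 0.15 for all tested genes. As a list they therefore stood near the background, and the differences are between its members.

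**Figure D1:**
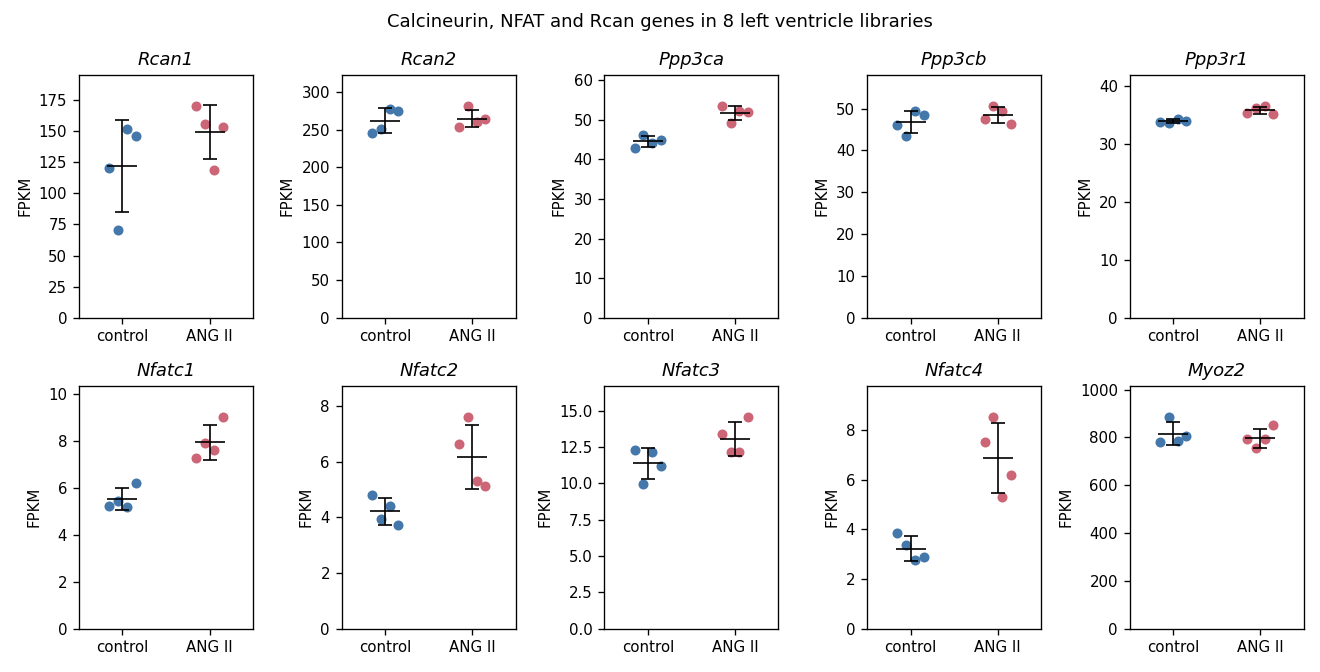
FPKM of each of the 10 genes (vertical axes, each from 0) in 4 control and 4 ANG II libraries; points are libraries, and bars give the mean and SD. The ANG II points of Nfatc4 lie between 5.31 and 8.51 FPKM, all above the control points at 2.75 to 3.87 FPKM, while the groups overlap for Rcan1, Rcan2, Ppp3cb, Nfatc3 and Myoz2.

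The NFAT factors were the least abundant of the 10 genes, and 3 of the 4 passed the adjusted p-value higher in ANG II as deposited, beside 28.4% of all tested genes. Of these 3, Nfatc4 alone also passed under median-of-ratios scaling and quantile normalization. Nfatc4 (ENSMUSG00000023411, chromosome 14, 55823144 to 55833943, forward strand, GRCm38) codes for NFATc4, also called NFAT3, the family member first linked to cardiac growth downstream of calcineurin. It was at 3.87, 3.38, 2.75 and 2.87 FPKM in control libraries 1 to 4 and at 7.52, 8.51, 5.31 and 6.18 FPKM in ANG II libraries 1 to 4. Every ANG II library was above every control library. The group means were 3.22 ± 0.511 and 6.88 ± 1.41 FPKM (SD, n = 4 each). On the log2 scale Nfatc4 rose by 0.89 (SE 0.143, limma BH-adjusted p = 0.00117). Only 81 to 250 fragments per library lay behind these values, the fewest of the 10 genes. Its log2 fold change was above that of 94.7% of all tested genes.

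The 250 bases before the RefSeq start of Nfatc4 are shown because it was the gene called. Capitals mark GGAAA, the core letters that NFAT proteins bind, and TTTCC, the same letters on the other strand.
Nfatc4, chr14:55824545-55824794, forward strand, GRCm38.p6: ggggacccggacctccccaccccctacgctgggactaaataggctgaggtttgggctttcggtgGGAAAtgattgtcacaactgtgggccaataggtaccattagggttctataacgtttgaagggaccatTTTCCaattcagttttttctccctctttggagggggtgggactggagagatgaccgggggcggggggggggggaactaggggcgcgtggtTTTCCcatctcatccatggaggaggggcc
This window held 3 copies, of which 1 was GGAAA and 2 were TTTCC. At least 1 copy was found in 55.6% of 32851 RefSeq promoter windows of the same length, and at least 3 copies in 6.39%. The letters are short, and a match is a description of the sequence only.

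Nfatc1 (ENSMUSG00000033016) codes for NFATc1, known for its part in endocardium and heart valves as well as in immune cells. It was at 5.24, 5.45, 5.19 and 6.19 FPKM in control libraries 1 to 4 and at 7.29, 7.91, 7.62 and 9.02 FPKM in ANG II libraries 1 to 4. The groups did not overlap. The log2 fold change was 0.46 (SE 0.0900, limma BH-adjusted p = 0.00357), which passed the adjusted p-value and missed the fold change threshold. Nfatc2 (ENSMUSG00000027544, chromosome 2, 168476410 to 168601657, reverse strand, GRCm38) codes for NFATc2, a factor best known from T cells. It was at 4.80, 3.93, 4.41 and 3.74 FPKM in control and at 6.64, 7.61, 5.31 and 5.14 FPKM in ANG II, again without overlap. Its log2 fold change was 0.45 (SE 0.127, limma BH-adjusted p = 0.0214). ANG II libraries 1 and 2 were the highest for Nfatc2 and for Nfatc4.

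The fold changes of Nfatc1 and Nfatc2 lay just under the threshold, and their call depended on the scale used. With a pseudocount of 0.1 in place of 1 they reached 0.52 and 0.53, and with voom on the recovered fragments 0.53 and 0.54, and both genes were called in each case. Without control library 4 Nfatc1 was called as well, and so was Nfatc2 without control 1, ANG II 3 or ANG II 4. Nfatc2 missed the adjusted p-value of 0.05 without control 2 (limma BH-adjusted p = 0.0527), control 4 (0.0623), ANG II 1 (0.0654) or ANG II 2 (0.0547).

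Nfatc3 (ENSMUSG00000031902), coding for NFATc3, was the most abundant of the 4 NFAT factors among the 10 genes and moved least of these 4. It was at 12.3, 9.94, 12.1 and 11.2 FPKM in control and at 13.4, 12.1, 12.1 and 14.5 FPKM in ANG II. The groups overlapped, and the log2 fold change of 0.18 (SE 0.0874, limma BH-adjusted p = 0.139) was not called. Its 95% interval ran from -0.01 to 0.38, so a small rise is within what these libraries allow.

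The calcineurin subunits moved little. Ppp3ca (ENSMUSG00000028161, chromosome 3, 136670124 to 136937727, forward strand, GRCm38), the alpha catalytic subunit, was at 43.0, 46.2, 44.0 and 44.8 FPKM in control and at 53.4, 49.3, 52.2 and 51.97 FPKM in ANG II. Every ANG II library was above the controls, but the step was small, 1.16-fold in mean FPKM. The log2 fold change of 0.21 (SE 0.0469, limma BH-adjusted p = 0.00669) passed the adjusted p-value and not the fold change threshold, and without any 1 library it stayed between 0.19 and 0.23.

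Ppp3cb (ENSMUSG00000021816), the beta catalytic subunit, was at 46.0, 43.4, 49.4 and 48.4 FPKM in control and at 47.5, 50.5, 49.4 and 46.3 FPKM in ANG II. The groups overlapped. Its log2 fold change was 0.05 (SE 0.0553, limma BH-adjusted p = 0.537), with a 95% interval from -0.07 to 0.17. Ppp3r1 (ENSMUSG00000033953), the regulatory subunit, had the least spread of the 10 genes, at 33.7, 33.5, 34.3 and 33.9 FPKM in control and 35.2, 36.1, 36.4 and 35.1 FPKM in ANG II. The groups did not overlap, by an exact two-sided permutation p of 0.0286, the smallest possible with 4 against 4 libraries. The difference was 1.05-fold, and limma, which borrows its spread from all genes, did not pass it (log2 fold change 0.07, SE 0.0431, BH-adjusted p = 0.216). Ppp3r1 is uncertain, since 13.0% of the 50-base words of its transcripts also occur in other genes, Wdr92 foremost, and Wdr92 covers 14.3% of its exons on the same strand.

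The 2 inhibitor genes were far more abundant than calcineurin, and neither differed between the groups beyond its spread. Rcan1 (ENSMUSG00000022951, chromosome 16, 92391953 to 92470867, reverse strand, GRCm38) has a start far upstream and another inside the gene. The transcript from the inner start is known to be induced by calcineurin and NFAT, and the transcript from the upstream start is not. The 250 bases before each are shown because the deposited values add both transcripts together, with the same capitals as above.
Rcan1, upstream start, chr16:92466170-92466419, reverse strand, GRCm38.p6: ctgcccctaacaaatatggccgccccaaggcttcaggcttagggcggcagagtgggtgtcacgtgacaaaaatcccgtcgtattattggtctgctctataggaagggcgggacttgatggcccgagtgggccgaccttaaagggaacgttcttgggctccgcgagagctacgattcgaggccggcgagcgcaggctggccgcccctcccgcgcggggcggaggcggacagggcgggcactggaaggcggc
Rcan1, inner start, chr16:92400079-92400328, reverse strand, GRCm38.p6: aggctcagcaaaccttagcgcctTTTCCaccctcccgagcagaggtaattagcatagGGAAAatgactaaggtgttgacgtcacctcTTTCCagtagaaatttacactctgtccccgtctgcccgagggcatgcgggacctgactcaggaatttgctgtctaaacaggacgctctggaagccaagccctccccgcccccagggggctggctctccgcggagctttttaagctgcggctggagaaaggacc
The window before the inner start held 3 copies of the NFAT core letters, and the window before the upstream start held 0. Of the 10 genes, 8 had a RefSeq promoter in the table used, with 13 windows in all, and 8 of those windows (61.5%) held at least 1 copy, near the 55.6% of all windows. At least 3 copies were found in 4 of the 13 windows (30.8%, beside 6.39% of all windows), those of Nfatc4, the inner start of Rcan1, Ppp3cb and 1 start of Nfatc2. Ppp3cb, which was not called, thus held as many copies as Nfatc4.

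Rcan1 was at 120.03, 70.8, 151.7 and 146 FPKM in control libraries 1 to 4 and at 169.9, 156, 118 and 154 FPKM in ANG II libraries 1 to 4. The groups overlapped, and control library 2 was well below the other 7 libraries. The log2 fold change was 0.34 (SE 0.219, limma BH-adjusted p = 0.274), with a 95% interval from -0.15 to 0.83, the widest of the 10 genes. Without control library 2 the log2 fold change was 0.10 (limma BH-adjusted p = 0.613). The same library was also lowest for Nppb, coding for the natriuretic peptide BNP, at 133 FPKM against 358 to 584 FPKM in the other controls. The deposited values cannot show whether transcripts from the 2 Rcan1 starts moved apart.

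Rcan2 (ENSMUSG00000039601), the second inhibitor gene, was at 245, 250.4, 277 and 274 FPKM in control and at 254, 281, 259.7 and 264 FPKM in ANG II. The groups lay over each other. The log2 fold change was 0.02 (SE 0.0568, limma BH-adjusted p = 0.852), with a 95% interval from -0.11 to 0.14. Myoz2 (ENSMUSG00000028116) was the most abundant of the 10 genes, at 779.5, 884, 785 and 807 FPKM in control and at 791, 755, 791 and 850.3 FPKM in ANG II. It too overlapped, with a log2 fold change of -0.03 (SE 0.0605, limma BH-adjusted p = 0.742) and a 95% interval from -0.17 to 0.11.

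Because the median of all genes was above 0, the sign of a small fold change depended on how the libraries were scaled. Under median-of-ratios scaling, which brings the median of all genes to 0.0040, 6 of the 10 genes had a log2 fold change below 0. These were Myoz2 (-0.26), Rcan2 (-0.21), Ppp3cb (-0.18), Ppp3r1 (-0.15), Nfatc3 (-0.03) and Ppp3ca (-0.01). Of these, Myoz2 and Ppp3r1 passed the adjusted p-value (limma BH-adjusted p = 0.0108 and 0.0496), and neither reached the fold change threshold, beside 13.1% of all tested genes that passed lower under this scaling. Nfatc4 was called under median-of-ratios scaling (0.70, limma BH-adjusted p = 0.00438) and under quantile normalization (0.58, limma BH-adjusted p = 0.0126). Nfatc1 and Nfatc2 fell to 0.26 each under median-of-ratios scaling and no longer passed the adjusted p-value (limma BH-adjusted p = 0.0633 and 0.168), and under quantile normalization they stood at 0.15 and 0.14. Of the 10 genes, Nfatc4 alone was called under each of these scalings. Nfatc1, Nfatc2 and Ppp3ca passed the adjusted p-value with the values as deposited and not under these 2 scalings. With a common total that leaves out the mitochondrially encoded genes and the top 10 genes, Nfatc1 passed (0.33, limma BH-adjusted p = 0.0258), and Nfatc2 (0.33, 0.0819) and Ppp3ca (0.07, 0.348) did not.

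**Figure D2:**
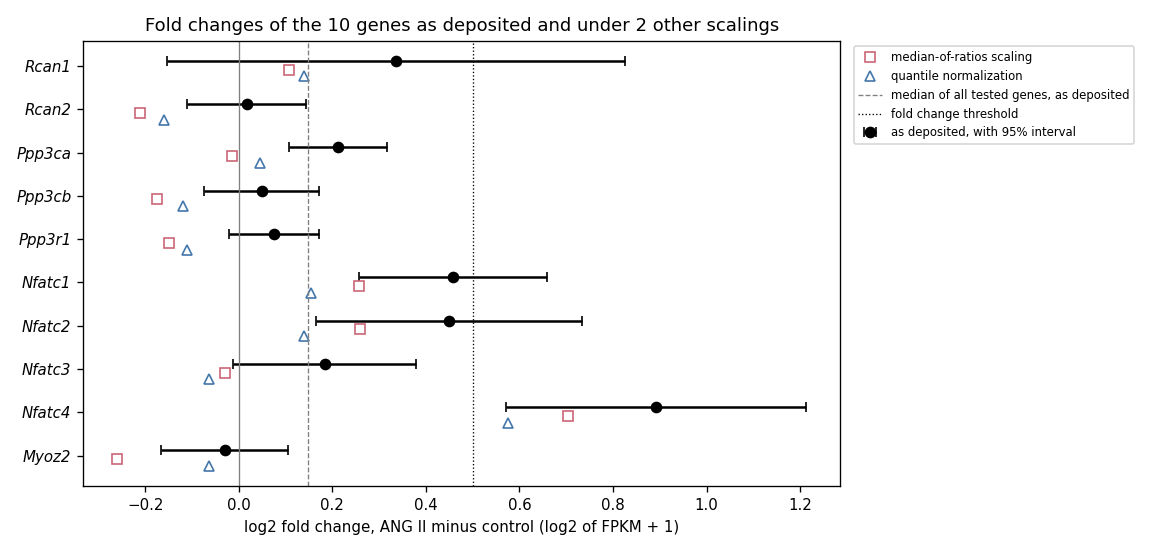
Log2 fold change of the 10 genes, ANG II minus control on the log2(FPKM + 1) scale, as deposited (black, with the 95% interval from limma) and under 2 other scalings. Nfatc4 lies above the threshold of 0.5 under all 3, whereas Rcan2, Ppp3cb, Ppp3r1 and Nfatc3 lie above 0 as deposited and below 0 under both other scalings.

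Ratios of 2 genes within a library do not change when the whole library is multiplied by a factor, and 4 of them were compared. Quantile normalization, which maps values by rank, can change them. The ratio of Nfatc4 to Nfatc3 was 0.227 to 0.340 in control and 0.425 to 0.701 in ANG II, without overlap. It rose 1.85-fold (0.89 on the log2 scale, exact two-sided permutation p = 0.0286, the smallest possible, n = 4 and n = 4), and adjusted over the 4 ratios its p was 0.114. A single ratio at the smallest possible p cannot come below 0.114 after this adjustment, so the adjusted value carries no information on its size. Nfatc4 rose relative to Nfatc3 in this comparison, and the other NFAT pairs were not compared. The ratio of Ppp3ca to Ppp3cb was 0.892 to 1.06 in control and 0.977 to 1.12 in ANG II, a rise of 1.12-fold with overlap (exact two-sided permutation p = 0.0857, adjusted 0.114). The ratio of Ppp3ca to Ppp3r1 was 1.28 to 1.38 in control and 1.37 to 1.51 in ANG II (1.10-fold, exact two-sided permutation p = 0.0571, adjusted 0.114). The ratio of Rcan1 to Rcan2 was 0.283 to 0.547 in control and 0.456 to 0.669 in ANG II (1.25-fold, exact two-sided permutation p = 0.257). Rcan2 stayed above Rcan1 in all 8 libraries.

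**Figure D3:**
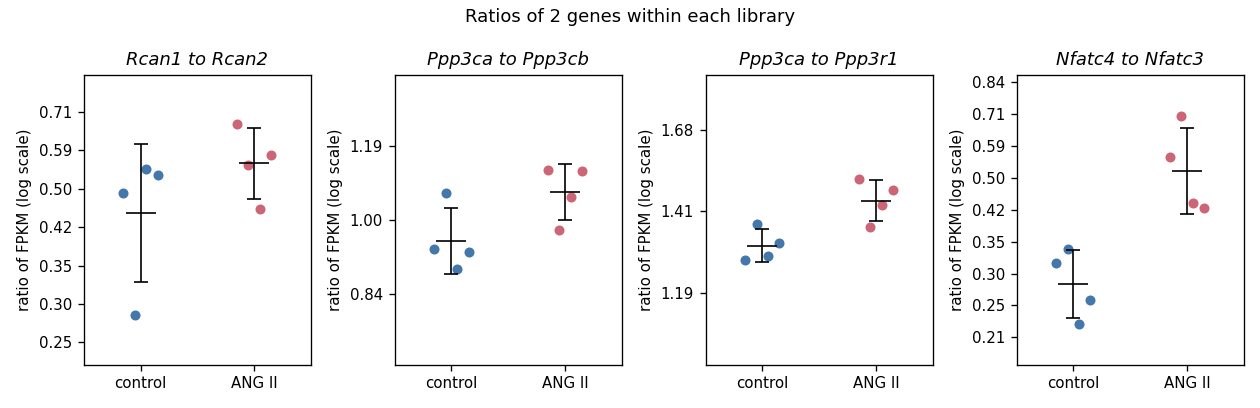
Ratio of the FPKM values of 2 genes within each library (log axes) for 4 control and 4 ANG II libraries; points are libraries, and bars give the mean and SD on the log scale. The ratio of Nfatc4 to Nfatc3 parts the groups, at 0.227 to 0.340 in control and 0.425 to 0.701 in ANG II, and the other 3 ratios overlap.

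By level, in FPKM and so per transcript length, the order of the 10 genes in control ran from Myoz2 (814 ± 48.1 FPKM) through Rcan2 (262 ± 16.3), Rcan1 (122 ± 36.9), Ppp3cb (46.8 ± 2.66), Ppp3ca (44.5 ± 1.37), Ppp3r1 (33.9 ± 0.312), Nfatc3 (11.4 ± 1.08), Nfatc1 (5.52 ± 0.463) and Nfatc2 (4.22 ± 0.480) to Nfatc4 (3.22 ± 0.511; SD, n = 4 each). In control the neighbours Ppp3cb and Ppp3ca overlapped, as did Nfatc2 and Nfatc4, and the other neighbours did not. In ANG II Ppp3ca had the higher mean of the 2 catalytic subunits (51.7 ± 1.71 against 48.4 ± 1.87 FPKM), and Nfatc4 passed Nfatc2 (6.88 ± 1.41 against 6.18 ± 1.17 FPKM, SD, n = 4 each), with overlap in both pairs. The Z-disc protein and the inhibitors were thus the abundant transcripts, and 99.7% of tested genes had a lower control mean than Myoz2, 98.6% than Rcan2 and 49.4% than Nfatc4. Spread between libraries of a group ran from a coefficient of variation of 0.921% for Ppp3r1 in control to 30.2% for Rcan1 in control.

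Other genes of the pathway, in lists by role, were read from the same fit. Leaving out markers of hypertrophy, 42 of 44 listed genes were tested, of which 4 were called higher and 0 lower, and 18 passed the adjusted p-value, all higher, with a median log2 fold change of 0.18. The share called higher was thus 9.52%, beside 14.0% of all tested genes, and the share that passed higher was 42.9%, beside 28.4%. The direction among the genes that passed the adjusted p-value depended on the scaling. With voom on the recovered fragments 18 passed higher and 1, Akap6, lower. Under median-of-ratios scaling 7 of the 42 genes passed higher (16.7%, beside 14.6% of all tested genes) and 13 lower (31.0%, beside 13.1%), at a median log2 fold change of -0.04. Of these genes 2 were called higher and 0 lower. Quantile normalization also gave 7 higher and 13 lower, beside 12.6% and 15.3% of all tested genes, and 1 was called in each direction. Ppp3r2, a B subunit of testis, was listed at 0 in all libraries, and Myoz3 reached no more than 0.0911 FPKM. Among calcineurin and calmodulin subunits, 1 of 4 tested genes was called, Calm2, coding for calmodulin (119 ± 11.9 to 181 ± 17.1 FPKM, SD, n = 4 each, log2 fold change 0.60, limma BH-adjusted p = 5.53e-04). Calm3, the most abundant of those not called, had a log2 fold change of 0.39. Calm2 is uncertain, since 9.72% of its 50-base words occur in other genes.

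Among 14 tested inhibitors, anchors and binding partners of calcineurin, 3 were called, all higher in ANG II. Cib1, coding for a calcium-binding protein that anchors calcineurin at the cardiomyocyte membrane, went from 8.54 ± 0.883 to 14.6 ± 1.06 FPKM (SD, n = 4 each, log2 fold change 0.71, limma BH-adjusted p = 2.28e-04). Ppia, coding for cyclophilin A, the protein through which ciclosporin blocks calcineurin, had a log2 fold change of 0.73 (SE 0.0802), with 12.7% of its 50-base words in other genes. Atp2b4, coding for a calcium pump of the plasma membrane that binds calcineurin, had 0.52 (SE 0.0634). Fhl2, the most abundant of the 11 not called, had -0.03. Neither Calm2 nor Atp2b4 was called once the libraries were rescaled by median-of-ratios or quantile, and Cib1 was not called after quantile normalization. In each case the fold change threshold was missed and the adjusted p-value was passed, with log2 fold changes of 0.37 and 0.41 for Calm2, 0.31 and 0.25 for Atp2b4 and 0.46 for Cib1. Atp2b4 was also not called without ANG II library 4, where Fkbp1a, coding for the FK506-binding protein FKBP12 (0.47 with all libraries), was called. Fbxo32, coding for the ubiquitin ligase atrogin-1, which targets calcineurin, was called lower under quantile normalization alone (log2 fold change -0.52, limma BH-adjusted p = 0.00718, against -0.20 as deposited). In this list 7 genes passed the adjusted p-value higher and 0 lower as deposited, and under each of both scalings 4 passed higher and 4 lower, the latter Akap6, Fbxo32, Fhl2 and Lmcd1.

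None of 9 NFAT kinases was called in limma (2 passed the adjusted p-value), nor any of the 5 NFAT relatives and transcription partners (2 passed) or of the 10 calcium entry and release genes (4 passed). Itpr3, coding for an inositol trisphosphate receptor, lay just under the threshold (log2 fold change 0.47, limma BH-adjusted p = 0.00574). It was called with a pseudocount of 0.1, with voom, and without control library 1 or ANG II library 2. Under median-of-ratios scaling it fell to 0.30 (limma BH-adjusted p = 0.0420), and under quantile normalization to 0.15 (0.265), where it did not pass. The most abundant in each of these lists were Csnk1a1 (log2 fold change 0.19), Mef2d (-0.04) and Ryr2 (0.05). All genes that passed in these 3 lists were higher as deposited. Under median-of-ratios scaling 4 kinases (Dyrk2, Mapk8, Mapk9 and Mapk14) and 3 partners (Gata4, Mef2a and Mef2d) passed lower. None of them had passed as deposited. Mef2d was at -0.26 (limma BH-adjusted p = 0.00703), while Csnk1a1 and Ryr2 turned to -0.04 and -0.18 without passing. These genes other than Csnk1a1, Mef2d and Ryr2 were named after their values were seen, as were Akap6, Fbxo32, Fkbp1a, Itpr3 and Lmcd1. Of the remaining family members, which were named after their values were seen, Nfat5, the calcineurin-independent NFAT factor, went from 15.7 ± 0.588 to 21.4 ± 1.83 FPKM (SD, n = 4 each, log2 fold change 0.42, limma BH-adjusted p = 0.00134). Rcan3 had a log2 fold change of 0.35 (limma BH-adjusted p = 0.0295) and Ppp3cc, the gamma catalytic subunit, 0.18 (0.131). Under median-of-ratios scaling and quantile normalization Nfat5 was at 0.20 and 0.19, Rcan3 at 0.15 and 0.06 and Ppp3cc at -0.03 and -0.07. Nfat5 passed under both (limma BH-adjusted p = 0.0342 and 0.0490), and Rcan3 and Ppp3cc passed under neither.

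Of 5 hypertrophy markers 4 were called, Nppa (log2 fold change 3.89), Myh7 (3.64), Ankrd1 (1.53) and Acta1 (1.25), all higher in ANG II. Nppb was not called, with a log2 fold change of 0.89 (SE 0.363, limma BH-adjusted p = 0.0886), though it was called without control library 1 and with voom (limma BH-adjusted p = 0.0378). Under median-of-ratios scaling it was at 0.66 (limma BH-adjusted p = 0.218) and under quantile normalization at 0.78 (0.140), not called in either. The groups overlapped at Acta1 and not at the other 4. An opposite-strand gene covers 61.5% of the exon length of Nppa, and 15.6% of the 50-base words of Myh7 are shared, with Myh6 foremost.

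**Figure D4:**
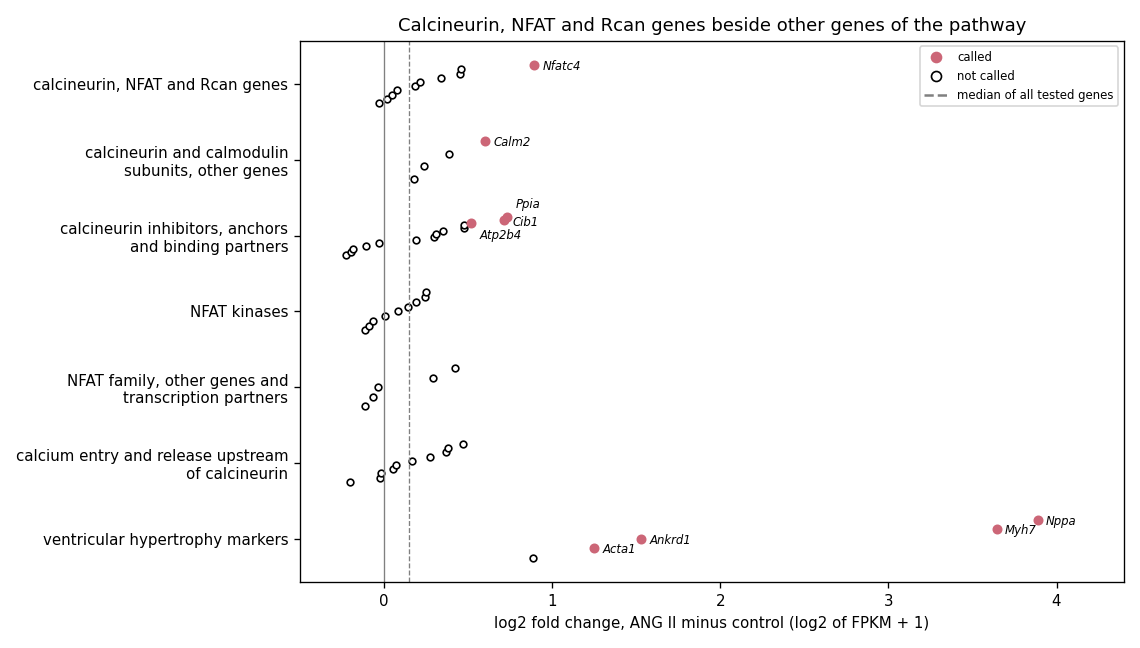
Log2 fold changes, ANG II minus control on the log2(FPKM + 1) scale, of the 10 genes and of 6 lists of other genes, 1 point a gene; filled points are called and named, and the dashed line is the median of all tested genes, 0.15. Every open point but Nppb, at 0.89, lies below 0.5, and the 2 points beyond 3 are Myh7 and Nppa.

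Markers of the cell types in the ventricle moved with the groups as well. The summed FPKM of 8 macrophage markers was 174 to 214 in control and 427 to 577 in ANG II, with 8 of 8 called higher, and that of 8 fibroblast markers 1156 to 1587 and 2795 to 3352, with 7 of 8 called higher. The fibroblast gene not called, Gsn, passed the adjusted p-value lower (log2 fold change -0.496, limma BH-adjusted p = 0.0280). The sum of 8 cardiomyocyte markers was 34297 to 35167 in control and 25103 to 27007 in ANG II, with 2 of 8 called lower. Of these 8 genes 5 were lower without overlap, and Actn2 (0.03), Ryr2 (0.05) and Mybpc3 (0.20) were above 0 without passing. Of all tested genes 14.0% were called higher and 1.41% lower. Sums of 9 endothelial and endocardial markers (407 to 466 in control, 464 to 546 in ANG II; 2 called higher) and of 8 T cell markers (2.86 to 9.65 and 7.92 to 14.6; 3 called higher) overlapped between the groups. Of the other lists, 2 of 6 smooth muscle and pericyte genes were called higher, 0 of 4 B cell genes, 1 of 2 tested skeletal muscle genes (sums of 1.29 to 2.81 and 3.78 to 6.27 FPKM) and 2 of 4 atrial genes (6.70 to 55.2 and 61.0 to 241 FPKM). No defining marker of these lists was at 0 in all libraries other than Myh4 of skeletal muscle. The part of these markers in the values of Nfatc1, Nfatc2 and Nfatc4 was not tested.

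The genes whose pattern over the 8 libraries was most like that of Nfatc4, the called gene, were sought among the 11934 genes whose mean reached 1 FPKM. Likeness was the root mean square distance between log2(FPKM + 1) values, each centred on its own mean. The nearest were Hhat (distance 0.0764), coding for the enzyme that palmitoylates hedgehog proteins, Trim46 (0.0797) and Pfkp (0.0959), coding for the platelet form of phosphofructokinase. Hhat went from 0.707 ± 0.230 to 2.16 ± 0.375 FPKM, Trim46 from 0.484 ± 0.130 to 1.81 ± 0.397 FPKM and Pfkp from 43.97 ± 2.79 to 89.9 ± 16.6 FPKM (SD, n = 4 each). Hhat and Trim46 were low in control, where the pseudocount of 1 shrinks a fold change. The search matches the size of the group difference on this log2(FPKM + 1) scale as well as the order of the libraries. It is a description with no test.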

How the data were processed

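RNA-seq was performed on 8 left ventricle libraries, 4 per group, grouped by their titles. The labels number the libraries without naming animals, so p-values measure the spread between these libraries. One protocol label names another cell type as the RNA source, and the tissue label was used. The authors deposited FPKM values per gene, scaled by transcript length and mapped fragments, 1 column per library. The submitters' processing notes name Bowtie2, HISAT and RSEM. The genome build, annotation and use of strand were not given in the sources used here. Positions come from GENCODE M21 (GRCm38), promoters from RefSeq (GRCm38.p6).

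In R 4.3.3, log2(FPKM + 1) values were compared by the moderated test of limma 3.58.1 with a variance trend, keeping genes whose mean reached 0.1 FPKM, two-sided, with Benjamini-Hochberg adjustment over all genes tested. The study names limma and both thresholds. The log base, pseudocount and filter were choices of this work. Fold changes on this scale understate the change of low genes. Fragments were recovered from the steps of the FPKM values with mean transcript lengths (97.6 to 98.1% of multi-exon values under 60 fragments fell within 0.05 of a whole number) and cover counting error only. Single ratios were compared by exact permutation over 70 allocations. All 10 genes are named, with the called and the most abundant uncalled gene of each pathway list, and the 3 genes most like each called member; others are marked. The fit was tested on simulated data. The genes and lists were chosen with earlier results of these data known. Alternatives changed the pseudocount, filter, scaling, variance trend, threshold, replicate block and libraries; voom on recovered fragments was added after the data were seen. Python 3.11.15, pandas 2.3.3 and matplotlib 3.10.9 were used.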

Additional observations from a re-analysis of the deposited data

Results flagged for a closer look

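In 1 of the 28 groups of 4 libraries examined (10 genes and 4 ratios, each in control and in ANG II), a library stood apart from the others of its group. For the log2 ratio of Rcan1 to Rcan2 in control, the gap between the lowest library, control 2, and the next was 0.831 of the whole range, just above the critical value of Dixon's test for 4 libraries. Its ratio was 0.283, and the other controls were at 0.490 to 0.547. Chance flags about 5% of groups. Without this library the ratio rose by 0.10 on the log2 scale, in place of 0.32 with it.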

How the results depend on the processing

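Over the alternatives, Nfatc4 was called under every one but the threshold of 1 on the log2 fold change. The count of the 10 genes called was 1 as reported, 3 with a pseudocount of 0.1 and 3 with voom (Nfatc1, Nfatc2 and Nfatc4), 4 with no fold change threshold, 0 above a log2 fold change of 1, and 1 to 2 with 1 library left out. All calls over the table numbered 2981, 6447 with no fold change threshold and 795 above 1; the pathway lists gave 8, 22 and 4. Higher calls made up 90.8% of all calls as deposited, 67.5% under median-of-ratios scaling, 59.1% under quantile normalization and 78.7% with a common total without mitochondrially encoded and top 10 genes; under this common total the small fold changes of Rcan2 (-0.13), Ppp3cb (-0.10) and Ppp3r1 (-0.0687) were also below 0. Under median-of-ratios scaling Rcan2 was at -0.21, Ppp3ca at -0.0134, Ppp3cb at -0.18, Ppp3r1 at -0.15 and Nfatc3 at -0.0288; under quantile normalization Rcan2 was at -0.16, Ppp3cb at -0.12, Ppp3r1 at -0.11 and Nfatc3 at -0.0640. With 1 library left out, Rcan2 ranged from -0.0140 to 0.0448 and Myoz2 from -0.0616 to 0.0101. The ratio of Ppp3ca to Ppp3r1 ranged from 0.12 to 0.17 on the log2 scale with 1 library left out, with exact permutation p-values of 0.0286 (without ANG II 2) to 0.0857. The cause was not tested. Same-numbered libraries did not deviate together (correlations of -0.0320 to 0.0620). The labels name no pairs, and weak correlations cannot show that there were none. With the replicate block 2968 genes were called, and 1 of the 10. Sign flips over the 4 pairs (replicate block) gave a log2 difference of 0.89 and an exact p of 0.125, the smallest possible, for Nfatc4 to Nfatc3.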

Other observations

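Among pathway genes whose values are not given above, 2 were chosen after their values were seen. Akap6 codes for the anchor mAKAP that holds calcineurin at the nuclear envelope of cardiomyocytes. It was at 22.71 to 25.3 FPKM in control and 19.2 to 22.70 FPKM in ANG II, so the groups barely missed overlapping. Of all tested genes 5.06% were lower without overlap. Akap6 had a log2 fold change of -0.18 (limma BH-adjusted p = 0.0507). It passed under median-of-ratios scaling (-0.40, limma BH-adjusted p = 0.00222), quantile normalization (-0.41, 0.00194) and voom (-0.19, 0.0248). Trpc6, coding for a calcium-permeable channel, was barely measured, with 1 to 7 fragments in the control libraries and 10 to 23 in the ANG II libraries (log2 fold change 0.27, limma BH-adjusted p = 0.0450). It was called with a pseudocount of 0.1 and with voom, and it missed the adjusted p-value under median-of-ratios scaling (limma BH-adjusted p = 0.0866) and quantile normalization (0.147).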
